A study of Mus musculus with 3 samples.

Results

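Dorsal skin that had been irradiated and then treated with topical ruxolitinib (Rux) was compared with unirradiated control skin (CON), to see which differences from unirradiated skin were present under the drug. A cell was a member if it had 200 or more detected genes and no more than 10% of its unique molecular identifiers (UMIs, tags that each mark 1 captured transcript) from mitochondrial genes. This left 22268 cells, 12046 of CON and 10222 of Rux, of the 33627 that passed the same filter in the 3 libraries of the series. Each condition was 1 library, so differences could not be checked against replicates, and neither tests nor p-values were used. The 95% intervals, exact Poisson for counts and Clopper-Pearson for shares of cells, cover counting error only.

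Ruxolitinib blocks the Janus kinases JAK1 and JAK2, which sit on the inner tails of receptors for interferons and for cytokines of the interleukin-6 family. Once a cytokine binds, these kinases phosphorylate STAT proteins, which enter the nucleus and switch on target genes, among them the SOCS genes, whose proteins shut the kinases off again. In skin the same kinases carry signals that fibroblasts, keratinocytes, vessels and immune cells exchange after injury and ultraviolet exposure.

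All mice were wild type C57BL/6J, labelled as females and 8 weeks old. Rux mice received UVA (315 to 400 nm, 0.60 mW/cm2) together with UVB (290 to 315 nm, 3.5 mW/cm2) on alternate days over 12 weeks, and an ointment with 1.5% ruxolitinib in a DMSO and Aquaphor vehicle straight after each exposure. CON mice had no irradiation and, per the study's description of its groups, vehicle alone. Full-thickness skin was taken 24 h after the last exposure, dissociated and captured as 3' single-cell libraries. How many mice made up a library is not stated in the sources used here. A library of irradiated skin under vehicle (UV) serves below as a reference level beside a named gene and is no side of any comparison. A difference of Rux from CON is described as already present without the drug where the UV level lay at least 1.5-fold from CON on the same side, and as new under treatment where UV lay within 0.32 log2 units of CON or on its other side.

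Before filtering, CON comprised 13170 cells with 165337289 UMIs and Rux 11287 cells with 131570327 UMIs. Retained cells were shallower in CON, with a median of 7677.5 UMIs against 9546 in Rux. Only 28 cell barcodes occurred in both libraries, 0.213% of CON and 0.248% of Rux. Against the label of female mice, Y-linked transcripts were present in both libraries (Ddx3y at 110 and 122 CPM, Uty at 79.1 and 79.1 CPM), while Xist, which females express, stood at 0.116 and 0.101 CPM. The sex given in the labels therefore does not match the transcripts of either library.

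**Figure D1:**
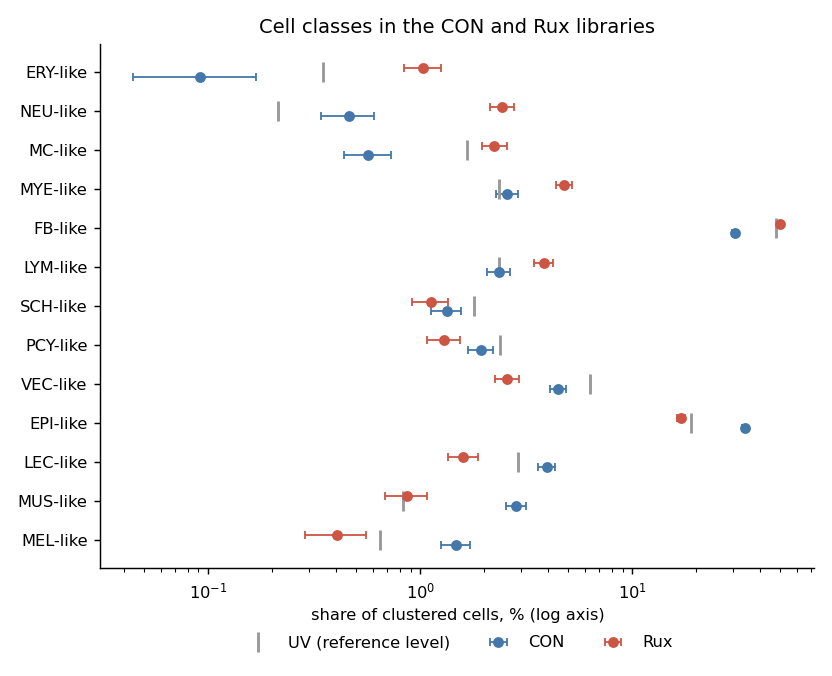
Share of clustered cells (%, log axis) in each named cell class for CON (blue) and Rux (red), with exact 95% Clopper-Pearson intervals, and the UV library as a grey mark. FB-like cells were at 30.4% in CON and 49.8% in Rux, EPI-like cells at 33.9% and 16.9%, and NEU-like cells at 0.459% and 2.43%.

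After putative doublets were removed, 10885 CON cells and 9386 Rux cells were clustered together with those of UV, and clusters were named after cell types from markers alone. Fibroblast-like (FB-like) cells, which build the dermal matrix, were 30.4% (29.5% to 31.3%) of CON cells and 49.8% (48.8% to 50.8%) of Rux cells. Epithelial-like (EPI-like) cells, the keratinocytes of epidermis and hair follicle, were 33.9% (33.0% to 34.8%) in CON and 16.9% (16.2% to 17.7%) in Rux. For both classes the UV library, at 47.6% and 18.9%, lay on the same side of CON, so the different balance of dermal and epithelial cells was already present without the drug. Shares sum to a whole, so a larger share of 1 class lowers the others, and how far dissociation yield differed between the libraries was not tested.

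Leukocyte shares were higher in Rux. Neutrophil-like (NEU-like) cells were 0.459% of CON (50 cells) and 2.43% of Rux (228 cells), against 0.213% of UV, so their larger share was new under treatment. Myeloid-like (MYE-like) cells were 2.57% and 4.77%, and lymphoid-like (LYM-like) cells 2.35% and 3.84%, with UV at 2.35% and 2.34%, so both of these were new by the same rule. Mast-cell-like cells, at 0.570% in CON and 2.24% in Rux, had a UV share of 1.66% and so were already more frequent without the drug. Erythrocyte-like cells were 0.0919% and 1.03%, and blood carried over with the tissue was not tested as a part of the other leukocyte shares.

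Vessel, pigment and muscle cells had lower shares in Rux. Vascular endothelial-like (VEC-like) cells were 4.46% in CON and 2.57% in Rux, although UV stood at 6.33%, and pericyte-like (PCY-like) cells were 1.93% and 1.29% with UV at 2.37%. Both were thus lower than control only in the treated library. Lymphatic endothelial-like (LEC-like) cells were 3.94% and 1.598%, with UV in between at 2.91%, and melanocyte-like cells 1.47% and 0.405%, with UV at 0.649%. Schwann-like (SCH-like) cells, at 1.33% and 1.12%, had overlapping intervals. In 13.6% of CON and 11.1% of Rux cells the markers of a single cell type did not stand out, and these cells stayed unnamed. Unnamed clusters differed in both directions. A cluster led by Col11a1 and Lrrc15, with Acta2 and Fbn2 among its leading genes, held 114 CON, 199 UV and 380 Rux cells. Those led by Gdf10, Lingo2 and Gm44284 held 579, 255 and 451 CON cells and 482, 91 and 51 Rux cells. The cluster led by Gm44284 had the keratinocyte genes Krt77 and Lor among its leading genes. Unnamed cells enter no FB-like or EPI-like share or gene value, and how many of them were fibroblasts or keratinocytes was not tested.

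For genes, UMIs were summed over the cells of a class in each library and scaled to that sum as CPM, counts in each 1000000 UMIs. A difference is the log2 ratio of Rux over CON with 0.5 UMI added to each sum, and genes at least 2-fold apart are counted by size alone, among genes that averaged 10 CPM or more over both libraries and had 100 UMIs or more in all. In FB-like cells, of 8196 such genes 202 (2.46%) were at least 2-fold higher in Rux and 299 (3.65%) at least 2-fold lower, and the median over all of them was −0.08. FB-like cells had a median of 6046.5 UMIs in CON and 9836 in Rux. Genes among the 15 highest and 15 lowest ratios, averaging 50 CPM or more, are named in the paragraphs that follow.

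Several feedback genes of the JAK-STAT pathway were lower in FB-like cells of Rux. Socs3 (ENSMUSG00000053113, chromosome 11, 117966079 to 117970047, GRCm38, GENCODE M21), the feedback inhibitor of interleukin-6-type signals, had 933 CPM (920 to 945) in CON and 128 CPM (125 to 132) in Rux, a log2 ratio of −2.86 (−2.90 to −2.82). Socs1, the feedback inhibitor of interferon signals, had 99.4 CPM and 18.4 CPM, a log2 ratio of −2.43 (−2.54 to −2.32). Both were already below control without the drug, at 430 and 50.6 CPM in UV, and further from control with it. Irf1, an interferon-induced transcription factor, had 669 CPM in CON, 180 CPM in Rux and 209 CPM in UV, so its level under the drug was near that of irradiated skin without it. Cebpd, a transcription factor of the acute-phase response, stood at 1577 CPM in CON, 375 CPM in Rux and 673 CPM in UV.

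Of the 20 genes of JAK-STAT feedback and direct targets, 19 passed the filter on low values, 8 were at least 2-fold lower in Rux and 1 at least 2-fold higher, with a median log2 ratio of −0.89. Il6, the cytokine that signals through this pathway, had 1124 CPM in CON, 509 CPM in Rux and 1158 CPM in UV, a log2 ratio of −1.14 (−1.17 to −1.12) that was new under treatment. The member at least 2-fold higher was Lif, a cytokine of the interleukin-6 family, with 42.4 CPM in CON and 96.4 CPM in Rux. Pim1 and Mcl1, a kinase and a survival factor also known as STAT targets, were close to control, with log2 ratios of −0.06 and −0.10.

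The kinases, STATs and receptors of the pathway differed little in comparison. Among 22 of 27 genes of this list that passed, 0 were at least 2-fold higher and 1 at least 2-fold lower, and the median was −0.12. That 1 gene was Stat2, which carries type I interferon signals, with 58.3 CPM in CON, 20.6 CPM in Rux and 48.4 CPM in UV. Stat3, the main carrier of interleukin-6 signals, had 503 CPM and 277 CPM, a log2 ratio of −0.86 (−0.90 to −0.83). The drug targets themselves differed less, with Jak1 at 606 CPM in CON and 465 CPM in Rux, and Jak2 at 115 and 133 CPM.

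Interferon-stimulated genes were lower as a group in FB-like cells of Rux. Of 27 that passed of 32 listed, 15 were at least 2-fold lower and 0 at least 2-fold higher, with a median of −1.06. The median was −0.36 when a mean of 50 CPM was required, so the larger ratios lay among genes of low level. Iigp1, an interferon-inducible GTPase that acts on parasite vacuoles, had 149 CPM in CON, 23.5 CPM in Rux and 56.6 CPM in UV. Gbp5, a guanylate-binding protein that promotes inflammasome assembly, had 57.2 CPM and 4.23 CPM, a log2 ratio of −3.75 (−3.97 to −3.55). Irgm1 and Ifi47, related GTPases, had log2 ratios of −3.04 and −2.85, and Cxcl9, a chemokine that attracts T cells, went from 34.5 CPM in CON to 4.23 CPM in Rux.

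Interferon-stimulated genes also differed in size and in what UV showed. Isg15, a ubiquitin-like modifier, had 71.8 CPM in CON, 24.6 CPM in Rux and 63.9 CPM in UV, so its lower level was new under treatment, and the same held for Ifit1, an RNA-binding effector, at 25.9, 10.2 and 31.5 CPM. Cxcl10, at 96.7 CPM and 75.2 CPM, and Bst2, at 93.4 CPM and 90.8 CPM, were close to control. Of the 15 genes of MHC class I presentation 6 were at least 2-fold lower, with a list median of −0.25. Apart from H2-Q4, a class I heavy chain gene at 204 CPM in CON and 72.2 CPM in Rux, these were regulators and peptide-processing genes such as Nlrc5 (28.9 CPM in CON and 5.85 CPM in Rux), the class I transactivator, and Psmb8 (75.3 and 36.0 CPM), an immunoproteasome subunit. The heavy chain gene H2-K1 (511 and 451 CPM) and its light chain gene B2m (928 and 828 CPM) had log2 ratios of −0.18 and −0.16, and H2 genes share reads among near-identical copies.

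The genes of these lists were also searched for the STAT recognition motif TTCNNNGAA, which reads the same on both strands, in the 250 bases before each gene's RefSeq start (RefSeq sequences of GRCm38.p6). It was present for 2197 of 27025 genes (8.13%), for 4 of 16 matched feedback genes (25%) and for 6 of 26 interferon-stimulated genes (23.1%). Among acute-phase genes it was present for 2 of 9 (22.2%), and among immediate-early genes for 1 of 26 (3.85%). The counts per list are small, and whether the motif goes with the direction of a difference was not tested. Windows from 3 of the genes that were lower in Rux are printed 5′ to 3′ on the strand of the gene with the motif in capitals. They show the motif in a feedback gene, an interferon-induced transcription factor and an interferon-inducible GTPase, and lie at chr11:117969502-117969530 on the minus strand (Socs3), chr11:53769914-53769942 on the plus strand (Irf1) and chr3:142496872-142496900 on the plus strand (Gbp5), with the motif 154, 90 and 52 bases before the RefSeq start. For Socs3 the RefSeq start lies inside the longer gene span printed above, and so does the window.
Socs3: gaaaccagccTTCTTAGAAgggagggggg
Irf1: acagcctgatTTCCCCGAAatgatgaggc
Gbp5: tggccgttatTTCTCAGAAccaagcacag
A match says only that these letters are in the window, not that a STAT protein binds there.

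**Figure D2:**
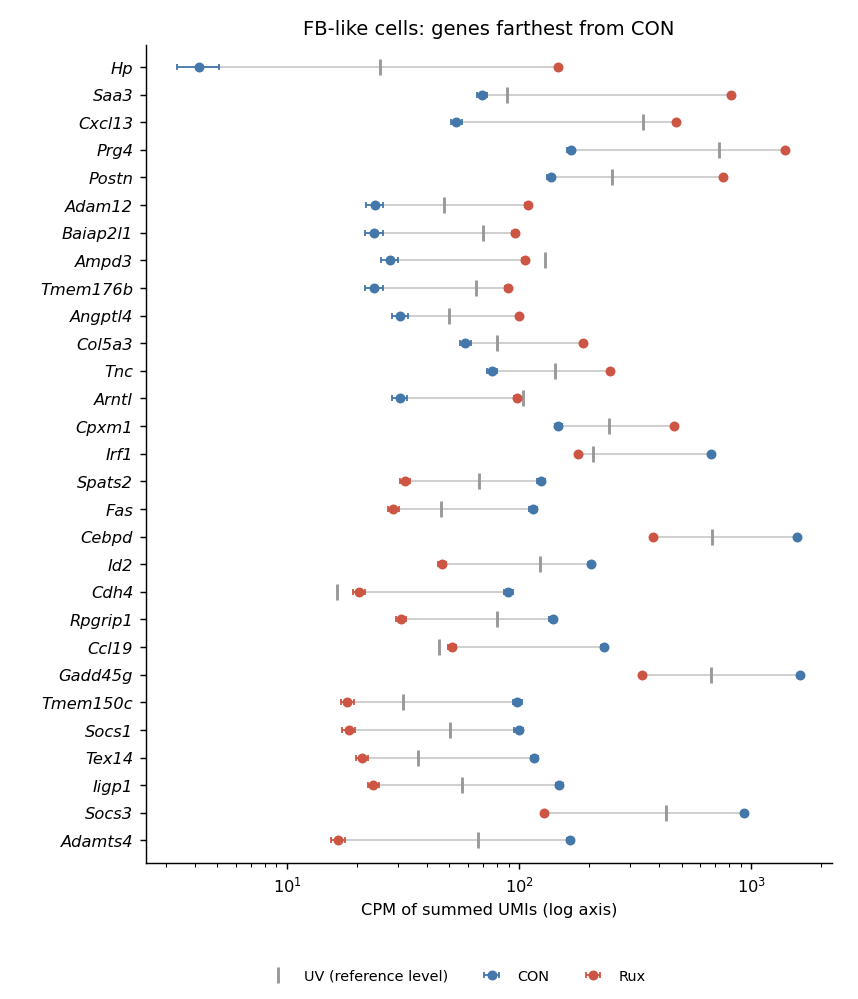
Level in FB-like cells (CPM, log axis) of the named genes at both ends of the Rux over CON ratios, in CON (blue) and Rux (red) with exact 95% Poisson intervals, and UV as a grey mark. Hp, Saa3, Cxcl13, Prg4 and Postn lead the genes higher in Rux, and Adamts4, Socs3, Iigp1 and Socs1 are among the lowest.

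Acute-phase genes differed in the opposite direction from the feedback genes in FB-like cells. Of 13 listed genes 8 passed, 6 of them were at least 2-fold higher in Rux and 0 lower, with a median of 1.32. Hp (ENSMUSG00000031722, chromosome 8, 109575128 to 109579172), which encodes the haemoglobin-binding protein haptoglobin, had 4.17 CPM (3.36 to 5.11) in CON and 147 CPM (144 to 150) in Rux, a log2 ratio of 5.13 (4.84 to 5.45) and the highest of the genes named in FB-like cells, and 25.2 CPM in UV. Saa3 (chromosome 7, 46711998 to 46715700), a serum amyloid A made outside the liver, had 69.0 CPM in CON, 819 CPM in Rux and 88.7 CPM in UV. Lcn2, an iron-sequestering antibacterial protein, had 6.21 CPM and 72.3 CPM, a log2 ratio of 3.54 (3.30 to 3.80), and Serpina3n, a protease inhibitor, 167 CPM and 493 CPM. Ceruloplasmin (Cp), a copper-carrying acute-phase protein, was near control at 214 CPM and 208 CPM.

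These acute-phase transcripts came mostly from a small set of cells. When FB-like cells were clustered again, 1 subcluster, led by Saa3, Hp, Lcn2, Timp1 and Tnc, held 482 Rux cells, 17 UV cells and 0 CON cells. It carried 94.2% of the Saa3 UMIs, 86.6% of the Hp UMIs and 83.7% of the Lcn2 UMIs of Rux FB-like cells, while being 10.3% of them. On the CON side, a subcluster led by Socs3, Gadd45g, Zfp36 and Irf1 held 1159 CON cells, 364 UV cells and 14 Rux cells. Egr1, Gadd45b and Fos were also among its leading genes. It carried 65.4% of the Socs3, 59.2% of the Socs1 and 59.9% of the Irf1 UMIs of CON FB-like cells. Egr1 and Fos are immediate-early genes, which also respond to tissue dissociation, and the part of dissociation in this subcluster was not tested. As both subclusters are led by the genes in question, their sizes are no separate result, and with 1 library per condition a subcluster held almost wholly by 1 library may reflect that library.

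Values without both subclusters show which differences lay in the remaining fibroblasts. Of the 8257 genes that passed there, 147 were at least 2-fold higher in Rux and 268 at least 2-fold lower. Saa3 then had 70.0 CPM in CON and 56.5 CPM in Rux, so its direction turned, as it did for the matrix glycoprotein gene Tnc at 109 CPM and 89.0 CPM. Hp, at 4.99 and 23.4 CPM, and Lcn2, at 6.20 and 14.1 CPM, were still higher in Rux, with log2 ratios of 2.22 and 1.18. Socs3 was still lower, at 507 CPM in CON and 134 CPM in Rux (log2 ratio −1.92), and so were Irf1 (−1.15) and Cebpd (−1.35). The median of the feedback list was −0.42 and that of the interferon-stimulated list −1.13, against −0.89 and −1.06 with all cells, so that the interferon difference did not rest on these subclusters. The acute-phase list, with 7 genes passing, had a median of 0.48 with 2 at least 2-fold higher and 1 lower, against 1.32 with all cells.

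Within single subclusters the same genes could be compared cell state by cell state, although the subclusters of a library are not replicates. In each of the 9 subclusters with at least 50 cells in both libraries Socs3 was lower in Rux, with log2 ratios from −3.38 to −1.10. Il6 was lower in 9 of 9, with log2 ratios from −2.35 to −0.65, as were Irf1, Junb, Stat2 and Stat3 in 9 of 9. Gbp5 was lower in 8 of the 8 subclusters where it was measured, with log2 ratios from −3.72 to −1.72. Saa3, by contrast, was higher in 4 and lower in 4 of 8 subclusters.

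Chemokine and cytokine genes of FB-like cells differed in both directions. Of 31 listed chemokines and alarmins 19 passed, 4 were at least 2-fold higher and 2 at least 2-fold lower, with a median of 0.63. Without the subclusters held by 1 library the median was 0.03, with 3 higher and 2 lower. Cxcl13, which attracts B cells, had 53.6 CPM in CON, 471 CPM in Rux and 341 CPM in UV, so most of its difference was present without the drug. Cxcl12, the ligand of CXCR4 that retains and recruits leukocytes, had 302 CPM, 845 CPM and 476 CPM, a log2 ratio of 1.48 (1.44 to 1.52). Both were higher in Rux in every subcluster compared, 8 of 8 for Cxcl13 and 9 of 9 for Cxcl12. Ccl19, a CCR7 ligand whose reads can fall on near-identical copies, was lower at 232 CPM in CON and 51.3 CPM in Rux.

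Among neutrophil-attracting chemokines and myeloid growth factors the size of the difference varied by gene. Cxcl2 had 939 CPM in CON and 1752 CPM in Rux, Cxcl3 24.7 CPM and 72.7 CPM, and Cxcl1 4226 CPM and 4667 CPM. Cxcl1 was higher in 4 and lower in 5 subclusters, and Csf3, the granulocyte growth factor gene, was lower in 6 of 7 although its level over all FB-like cells was 26.4 CPM in CON and 43.3 CPM in Rux. Ccl2, a monocyte attractant, had 2272 CPM and 4081 CPM. Csf2, which encodes GM-CSF, a growth factor for granulocytes and macrophages, went from 3.76 CPM to 43.1 CPM, with 13.0 CPM in UV and a log2 ratio of 3.51 (3.20 to 3.85). Csf1, the macrophage growth factor, had 411 CPM, 1091 CPM and 1025 CPM, so Rux and UV were alike in their distance from control. Tslp, an epithelial-type alarmin, was lower at 26.2 CPM and 13.5 CPM.

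The fibrillar and other collagens had a median of −0.12, with 1 of 15 genes at least 2-fold higher and 1 lower. Without the subclusters held by 1 library the median was −0.39, with 1 higher and 4 lower. Col1a1, the main chain of type I collagen, had 7559 CPM in CON, 4121 CPM in Rux and 4011 CPM in UV. Col1a2 had 8962, 5713 and 6146 CPM, so the level over all FB-like cells was lower with the drug and without it. A subcluster led by Igfbp2 and Grem1, with 377 CON, 266 Rux and 66 UV cells, held 77.9% of the Col1a1 UMIs of CON. Within subclusters Col1a1 was higher in 4 and lower in 5 of 9, and Col1a2 higher in 3 and lower in 6. The part of the mix of subclusters in the lower level was not tested. Col3a1, the type III chain, stood at 5028 CPM and 4989 CPM. Col8a1, a short-chain collagen, was lower (200 and 59.7 CPM), and Col5a3, a type V chain, higher (58.5 and 189 CPM).

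Few elastic fibre or basement membrane genes reached 2-fold. Eln, which encodes elastin, had 176 CPM in CON, 320 CPM in Rux and 167 CPM in UV, a log2 ratio of 0.86 (0.81 to 0.91) that was new under treatment. The type IV collagen genes Col4a1 (334, 546 and 308 CPM in CON, Rux and UV) and Col4a2 (178, 286 and 165 CPM) were new in the same sense. The list medians were 0.51 over 17 elastic fibre genes and 0.46 over 16 basement membrane genes, with 0 and 1 genes at least 2-fold higher, beside 2.46% of all FB-like genes.

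Genes of matrix turnover and repair were among the highest ratios. Prg4, a lubricating proteoglycan, had 167 CPM in CON, 1392 CPM in Rux and 722 CPM in UV, and Postn, a matricellular protein of healing skin, had 137, 752 and 251 CPM. A subcluster led by Postn held 60.0% of its Rux UMIs, yet Postn was higher in Rux in 7 of 9 subclusters and Prg4 in 9 of 9. Of 21 matrix-degrading enzymes and inhibitors 6 were at least 2-fold higher and 1 lower, and without the subclusters held by 1 library 2 were higher and 2 lower, with a median of 0.03. With all cells Mmp11 (13.0, 50.9 and 12.8 CPM) and Mmp19 (42.4, 106 and 38.1 CPM), both metalloproteinases, were new, whereas Mmp3, stromelysin-1, at 270, 628 and 414 CPM, was already higher without the drug.

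Adamts4, an aggrecan-cleaving protease, was the gene with the lowest ratio of all named in FB-like cells, with 165 CPM in CON, 16.6 CPM in Rux and 66.5 CPM in UV, a log2 ratio of −3.32 (−3.43 to −3.21). It was as low without the subclusters held by 1 library, at 192 CPM and 18.8 CPM. Itga5, the fibronectin receptor chain, had 193 CPM and 537 CPM, and Tnc 76.5 CPM and 245 CPM. Adam12, a metalloprotease of activated fibroblasts, had 23.9 CPM and 109 CPM.

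Stress and clock genes completed the named genes. Of 29 immediate-early genes 13 were at least 2-fold lower and 0 higher in Rux, with a median of −0.89. Gadd45g, a stress-response gene, had 1619 CPM in CON, 338 CPM in Rux and 670 CPM in UV, and Egr1, a rapidly induced transcription factor, had 3598, 1266 and 1194 CPM. Immediate-early genes also respond to tissue dissociation, whose part was not tested. Without the subclusters held by 1 library, 4 genes of this list were at least 2-fold lower and the median was −0.34.

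The metallothionein genes, which encode metal-binding proteins, were lower, with Mt1 at 8945 CPM in CON and 3235 CPM in Rux and Mt2 at 4494 and 1924 CPM. Mt1 was lower in 9 of 9 subclusters. Arntl, the core clock activator BMAL1, was higher (30.6 and 97.4 CPM), while the clock outputs Dbp (89.1 and 43.0 CPM) and Bhlhe41 (33.9 and 10.2 CPM) were lower. The hour of sampling is not given in the sources used here.

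The remaining named genes were mostly present without the drug as well. Ampd3, an AMP deaminase, had 27.6 CPM in CON, 106 CPM in Rux and 129 CPM in UV. Baiap2l1, an adaptor of membrane curvature, Tmem176b, Angptl4, a lipase inhibitor, and Cpxm1, a carboxypeptidase-like protein, had log2 ratios from 1.65 to 2.01. On the lower side stood Fas, the death receptor, with 115, 28.7 and 46.1 CPM, Id2, an inhibitor of helix-loop-helix factors, with 204, 46.6 and 123 CPM, and Cdh4, a cadherin, with 89.6, 20.5 and 16.4 CPM. The subcluster led by Igfbp2 and Grem1 held 89.9% of the Cdh4 UMIs of CON and 58.6% of those of Rux. Cdh4 was lower in 4 and higher in 1 of 5 subclusters compared, and the part of the mix of subclusters was not tested. Tex14, Tmem150c, Rpgrip1 and Spats2 had log2 ratios from −2.47 to −1.95.

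Genes of the senescence-associated secretory phenotype had a median of 0.54 over 28 genes, with 7 at least 2-fold higher and 1, Il6, lower. Without the subclusters held by 1 library the median was 0.08 and 3 were higher. Cdkn2a, the senescence marker that encodes p16 and p19ARF, had 47.6 CPM in CON, 22.6 CPM in Rux and 6.42 CPM in UV. Cdkn1a, the p53 target p21, had 456, 231 and 223 CPM. Both inhibitors were therefore lower than control in FB-like cells of irradiated skin, with the drug or without. Hmox1, the haem oxygenase induced by oxidative stress, had 54.9 CPM in CON, 116 CPM in Rux and 459 CPM in UV, so Rux lay between control and UV.

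Markers of other cell types in FB-like cells differed as well. The summed EPI markers stood at 562 CPM in CON and 251 CPM in Rux, the erythrocyte markers at 55.4 CPM and 135 CPM and the neutrophil markers at 153 CPM and 169 CPM, while the fibroblast markers stood at 34409 CPM and 26445 CPM. Their part in the FB-like differences was not tested.

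**Figure D3:**
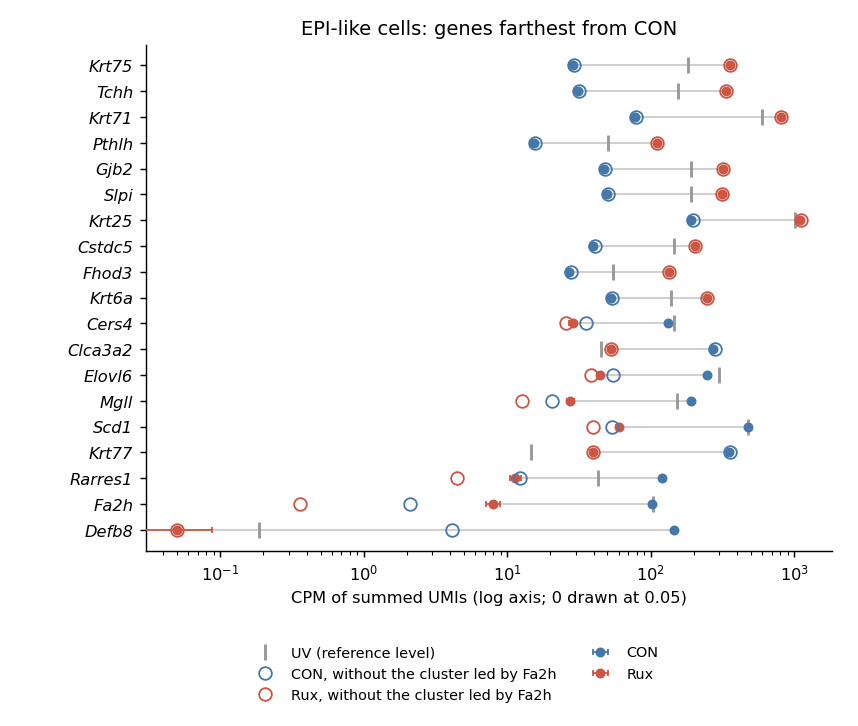
Level in EPI-like cells (CPM, log axis) of the named genes with the highest and lowest Rux over CON ratios, in CON (blue) and Rux (red) with exact 95% Poisson intervals, and UV as a grey mark. A level of 0 is drawn at 0.05 CPM. Hollow circles are the levels without the sebaceous-type cluster led by Fa2h, where Scd1 and Elovl6 lie close together in CON and Rux.

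EPI-like cells of Rux had higher levels of most measured hair shaft and root sheath genes, and lower levels of several differentiation and sebaceous genes. Of 8687 genes 222 (2.56%) were at least 2-fold higher in Rux and 185 (2.13%) at least 2-fold lower, with a median of −0.07. Median depth was 18142 UMIs per cell in CON and 20831 in Rux.

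Hair follicle keratins led the higher genes. Krt71 (ENSMUSG00000051879, chromosome 15, 101733949 to 101743109), a keratin of the inner root sheath, had 77.4 CPM in CON, 807 CPM in Rux and 596 CPM in UV, and Krt25, another inner root sheath keratin, had 192, 1108 and 1017 CPM. Tchh, which encodes the root sheath protein trichohyalin, had 31.1, 334 and 155 CPM, and Krt75, a companion layer keratin, 28.7, 358 and 183 CPM. All 4 were already above control without the drug. Of 16 hair shaft and root sheath genes 8 passed and 7 of these were at least 2-fold higher, with a median of 1.92. A cluster led by Krt71 and Krt25 held 49 CON, 153 UV and 166 Rux cells, and another, led by Krt71 and Krt73, held 154, 165 and 106. The mix of follicle cells thus differed. Krt71 was higher in Rux in 8 of 8 EPI-like clusters compared, with log2 ratios from 1.11 to 6.22. It was also higher in 8 of 8 FB-like subclusters, from 0.81 to 2.44, at 2.58 CPM in CON and 10.6 CPM in Rux over all FB-like cells, which should lack it. The part of RNA free in the suspension in these counts was not tested. Tchh was higher in 5 and lower in 4 clusters, and a single cell held 23.9% of its CON UMIs and 22.8% of its Rux UMIs. With clusters weighted as in CON the list median was 0.42, so much of the follicle difference moved with cluster sizes. That weighting dropped the clusters led by Fa2h and Fhod3, which had few cells in 1 library. Leaving out those clusters alone gave a list median of 1.90.

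Of 19 stress and wound genes 10 passed, of which 4 were at least 2-fold higher and 0 lower, with a median of 0.74. Krt6a, a keratin induced on wounding, had 52.7 CPM in CON, 248 CPM in Rux and 139 CPM in UV, although its partner Krt16 was lower at 932, 523 and 477 CPM and the wound keratin Krt17, at 2640 CPM in CON and 2316 CPM in Rux, was lower in 9 of 9 clusters. Slpi, a secreted protease inhibitor, had 49.4, 313 and 190 CPM, and Gjb2, the gap junction protein connexin 26, had 47.3, 317 and 193 CPM. Pthlh, which encodes parathyroid hormone-related protein, had 15.4, 111 and 50.5 CPM and was higher in 9 of 9 clusters. Cstdc5, a cystatin-domain protein, and Fhod3, a formin of the actin cytoskeleton, had log2 ratios of 2.34 and 2.32. A cluster led by Pthlh and Krt6a held 65 CON, 97 UV and 185 Rux cells, and one led by Fhod3 held 6, 43 and 139. Gjb2 was among the leading genes of the latter and of the cluster led by Krt71 and Krt25. The part of this mix of clusters in these levels was not tested.

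Genes of the EGF family lay above control, with a median of 0.52 over 8 genes and 3 at least 2-fold higher. Nrg1, a ligand of ERBB receptors, had 108 CPM in CON, 441 CPM in Rux and 161 CPM in UV. A cluster led by Fhod3 and Nrg1 held 6 CON cells and 139 Rux cells. Without it and the cluster led by Fa2h, Nrg1 had 111 CPM and 342 CPM. Areg, amphiregulin, had 53.1, 137 and 173 CPM, so here UV lay above Rux. The cell cycle list stood at a median of −0.59, with 0 of 26 genes at least 2-fold higher and 1 lower.

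Interfollicular differentiation genes were lower, and Rux lay between CON and UV for several of them. Krt1 and Krt10, the keratin pair of the spinous layer, had 484 and 1014 CPM in CON, 245 and 527 CPM in Rux, and 65.2 and 160 CPM in UV. Krt77, a suprabasal keratin, had 349, 39.4 and 14.7 CPM and was lower in 7 of 7 clusters. A cluster led by Krt77, Krt1 and Krt10 held 725 CON cells, 28 UV cells and 94 Rux cells. Basal keratins differed little, with Krt5 at 1657 CPM and 1842 CPM and Krt14 at 2403 CPM and 2784 CPM. Over 15 cornified envelope genes the median was −0.40, with 2 at least 2-fold higher, among them Ivl, involucrin (6.77 and 32.3 CPM), and 4 at least 2-fold lower, among them Lor, loricrin (23.2 and 5.56 CPM).

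Lipid synthesis genes made up much of the lowest ratios and were tied to 1 small cluster. Scd1, a fatty acid desaturase, had 477 CPM in CON, 60.1 CPM in Rux and 477 CPM in UV, and Elovl6, a fatty acid elongase, 249, 44.1 and 302 CPM. Mgll, a monoglyceride lipase, Cers4, a ceramide synthase, and Fa2h, a fatty acid hydroxylase, had log2 ratios from −3.67 to −2.20. A cluster led by Fa2h, with sebaceous gland genes, held 52 CON cells, 37 UV cells and 1 Rux cell. Without it Scd1 had 53.5 CPM and 39.8 CPM and Elovl6 54.5 and 38.4 CPM, both within 2-fold. A single Rux cell held 95.5% of the Fa2h UMIs, so these levels move with how many sebaceous-type cells were captured, and their part was not tested further.

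Among the other low genes Defb8, a defensin gene, had 146 CPM in CON and 0 UMIs in Rux, at least 2046-fold lower against a floor of 3 UMIs. It stood at 0.187 CPM in UV, so its low level was already present without the drug. Without the cluster led by Fa2h its CON level was 4.10 CPM. Rarres1, a retinoic acid-induced gene, had 121 CPM in CON, 11.4 CPM in Rux and 43.1 CPM in UV, so it too was already lower without the drug. It was also among the leading genes of the cluster led by Fa2h, and 1 cell held 61.1% of its Rux UMIs. Clca3a2, a calcium-activated chloride channel regulator, had 274 CPM and 53 CPM. Clca3a2 stood at 44.9 CPM in UV and was thus as low without the drug. It was among the leading genes of the cluster led by Krt77, with 725 CON, 28 UV and 94 Rux cells. The part of this mix in its level was not tested.

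Single JAK-STAT genes were lower in EPI-like cells, although few members of the lists reached 2-fold. Irf1 had 147 CPM in CON, 36.4 CPM in Rux and 81.0 CPM in UV, and was lower in 9 of 9 clusters. Stat3 had 314, 122 and 194 CPM, a log2 ratio of −1.36, and was also lower in 9 of 9 clusters. Socs3, at 114, 34.5 and 97 CPM, was lower in Rux alone and therefore new under treatment. Over 15 feedback genes the median was −0.37 with 2 at least 2-fold lower, and the 8 interferon-stimulated genes that passed had a median of −0.62 with 0 past 2-fold. Chemokine genes had a median of 0.62, with 6 of 14 at least 2-fold higher, among them the neutrophil attractants Cxcl1 (67.5, 160 and 108 CPM) and Cxcl2 (18.8, 58.2 and 34.7 CPM). Marker sums of erythrocytes stood at 6.76 CPM in CON and 154 CPM in Rux, and their part was not tested.

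**Figure D4:**
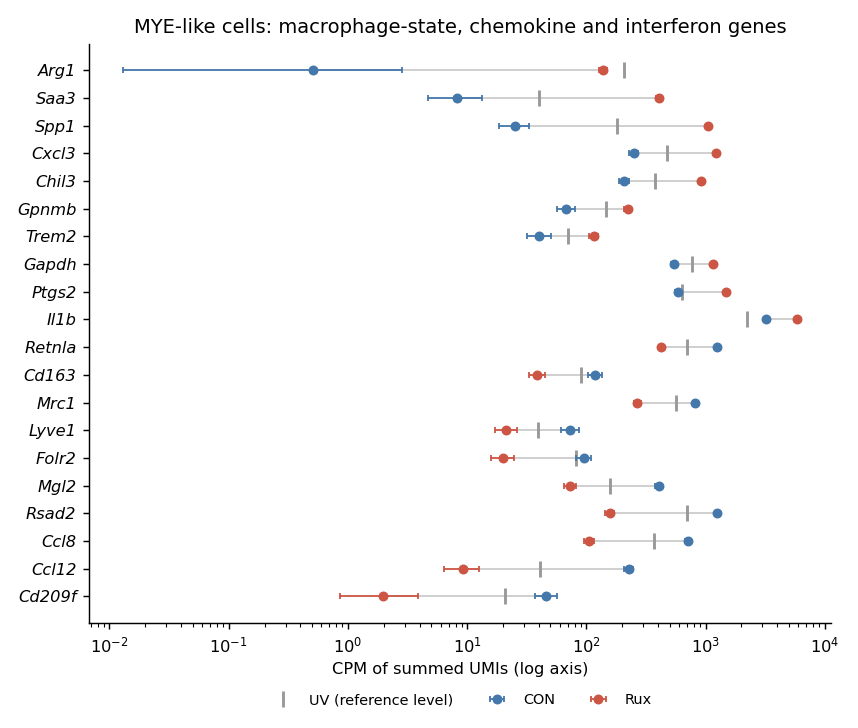
Level in MYE-like cells (CPM, log axis) of macrophage state, inflammatory and interferon genes in CON (blue) and Rux (red), with exact 95% Poisson intervals, and UV as a grey mark. Spp1 had 25.1 CPM in CON and 1057 CPM in Rux, and Mrc1 820 CPM and 268 CPM.

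MYE-like cells of Rux differed from control in both directions among macrophage genes, and 12 of 21 interferon-stimulated genes were at least 2-fold lower. Of 6042 genes 209 (3.46%) were at least 2-fold higher and 355 (5.88%) at least 2-fold lower, with a median of −0.07. Spp1 (chromosome 5, 104435118 to 104441050), osteopontin, had 25.1 CPM in CON, 1057 CPM in Rux and 182 CPM in UV, a log2 ratio of 5.38 (4.99 to 5.83). Arg1, the arginase of alternatively activated and tissue-repair macrophages, had 1 UMI in CON (0.512 CPM), 138 CPM in Rux and 206 CPM in UV, with a log2 ratio of 7.49 (5.59 to 13.38). Saa3 had 8.19, 404 and 39.8 CPM. In FB-like cells it was higher over all cells too, but lower without the subclusters held by 1 library. Cav1, of caveolae, and Ifitm1, an interferon-induced membrane protein, had log2 ratios of 3.88 and 3.47.

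Of 22 macrophage state genes 8 were at least 2-fold higher and 9 lower, so the list median of 0.02 hides both directions. Chil3, a chitinase-like protein, had 206 CPM in CON, 921 CPM in Rux and 376 CPM in UV, and Gpnmb and Trem2, both known from lipid-associated macrophages, had 67.6, 223 and 145 CPM and 40.4, 115 and 69.5 CPM, whereas Lpl, lipoprotein lipase, was lower at 227 CPM and 87.1 CPM. On the lower side were genes of resident dermal macrophages. Mrc1, the mannose receptor, had 820, 268 and 566 CPM, and Cd163, the scavenger receptor for haemoglobin, 118, 38.6 and 90.9 CPM. For Folr2, a folate receptor, the log2 ratio was −2.23 and new, with CON and UV at 94.7 and 82.1 CPM, and Mgl2, a C-type lectin, 405, 72.5 and 158 CPM.

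Chemokine and alarmin genes of MYE-like cells went both ways, with 5 of 22 at least 2-fold higher and 5 lower, and without the cluster led by Igkc 2 of 19 were higher and 6 lower. Over all 5201 genes that passed without that cluster, 191 were at least 2-fold higher and 375 lower. Single inflammatory genes had a higher level that was new under treatment. Il1b had 3227 CPM in CON, 5827 CPM in Rux and 2209 CPM in UV. Ptgs2, the prostaglandin synthase COX-2, had 592, 1480 and 632 CPM, and Cxcl1 828, 1894 and 880 CPM. Il10, an anti-inflammatory cytokine, was likewise higher at 369, 747 and 397 CPM. Glycolysis genes had a median of 0.91, with 5 of 15 at least 2-fold higher and 1 lower, and Gapdh stood at 544 CPM and 1155 CPM.

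Interferon genes were lower in MYE-like cells, with 12 of 21 at least 2-fold lower, 1 at least 2-fold higher and a median of −1.004. In the cluster led by Igkc, with 65 CON and 64 Rux cells, the median was 0.44 over 10 genes, with 2 higher and 1 lower, and in the other MYE-like cells it was −1.22. Of all 2128 genes that passed in the cluster led by Igkc, 99 were at least 2-fold higher and 60 lower. Rsad2, the antiviral protein viperin, had 1237 CPM in CON, 156 CPM in Rux and 702 CPM in UV, and Ifit1 had 485, 99.7 and 247 CPM. Ccl12 (226, 9.16 and 40.8 CPM) and Ccl8 (711, 106 and 368 CPM), monocyte-attracting chemokines, were lower too. Socs3 was not lower here, at 224 CPM in CON and 280 CPM in Rux. Trim30c and Hdac9, a histone deacetylase, had log2 ratios of −4.00 and −3.54.

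Immunoglobulin-related genes at the bottom of the MYE-like list lay in few cells. Ighg3 had 1480 CPM in CON and 0 UMIs in Rux, but 99.9% of its CON UMIs were in 1 cell. Jchain, the joining chain of secreted antibodies, had 2006 CPM in CON from 8 cells and 67.3 CPM in Rux from 1 cell. Without the cluster led by Igkc, Spp1 had a log2 ratio of 5.18, Mrc1 of −1.79 and Rsad2 of −3.22. The neutrophil markers summed to 199 CPM in CON and 448 CPM in Rux within MYE-like cells, and their part in the inflammatory genes was not tested.

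In LYM-like cells the makeup of lymphocyte clusters differed between libraries, so values are given by cluster where it mattered. Of 5513 genes 138 (2.50%) were at least 2-fold higher in Rux and 286 (5.19%) at least 2-fold lower, with a median of −0.06. The sum of the LYM markers themselves was 4872 CPM in CON and 2330 CPM in Rux. Trdc, the constant region of the gamma delta T cell receptor, had 997 CPM and 150 CPM, and Cd3e, of the T cell receptor complex, 703 CPM and 222 CPM. In a cluster led by Gzmc, Cd3e stood at 1176 CPM in CON (116 cells) and 19.4 CPM in Rux (65 cells), so the cells of this cluster carried T cell receptor transcripts in CON and few of them in Rux. The cluster led by Icos, with 140 and 295 cells, had like Cd3e levels of 284 CPM and 298 CPM.

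Within the cluster led by Icos, Il17a, the interleukin-17A gene, had 592 CPM in CON, 57.9 CPM in Rux and 252 CPM in UV, a log2 ratio of −3.35. Areg had 746, 305 and 725 CPM there, so its lower level was new, and Cd4 had 46.3, 124 and 85.5 CPM. Over all LYM-like cells Ifng, the interferon gamma gene, was higher in Rux at 68.6 CPM, 189 CPM and 154 CPM in CON, Rux and UV, while within the cluster led by Icos it stood at 103 CPM and 85.7 CPM. The higher Ifng level lay in the cluster led by Gzmc, at 29.4 CPM in CON and 466 CPM in Rux.

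The genes with the lowest LYM-like ratios, Olfm3, Col27a1, Akap6, Fermt2 and Mest, had 131 to 307 CPM in CON and 0.440 to 6.16 CPM in Rux. Each was seen in 45 to 86 CON cells and 1 to 11 Rux cells. The cluster led by Gzmc held 116 of 256 LYM-like cells in CON and 65 of 360 in Rux. The part of this mix in the LYM-like ratios was not tested. Olfm3 had 1 UMI in Rux, and its log2 ratio of −7.64 had an interval from −13.53 to −5.72. Among the highest were Tnfsf8, the CD30 ligand, at 111 CPM and 496 CPM, Pik3r6, a regulator of PI3-kinase gamma, at 20.8 and 142 CPM, and Itga4, the integrin alpha 4 chain, at 28.3 and 135 CPM. Fmnl2, a formin, and Dscam, an adhesion molecule, had log2 ratios of 2.10 and 2.03. The T cell list had a median of 0.43 over 20 genes, with 2 at least 2-fold higher and 6 lower, and the cell cycle list −1.18 with 10 of 13 lower. In the cluster led by Icos the cell cycle median was −0.92 with 2 of 9 lower, and in that led by Gzmc −1.83 with 5 of 6 lower. Over all genes that passed, 53 of 4027 were at least 2-fold lower in the cluster led by Icos and 304 of 2619 in that led by Gzmc. The T cell medians of these clusters were 0.14 and −0.34.

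**Figure D5:**
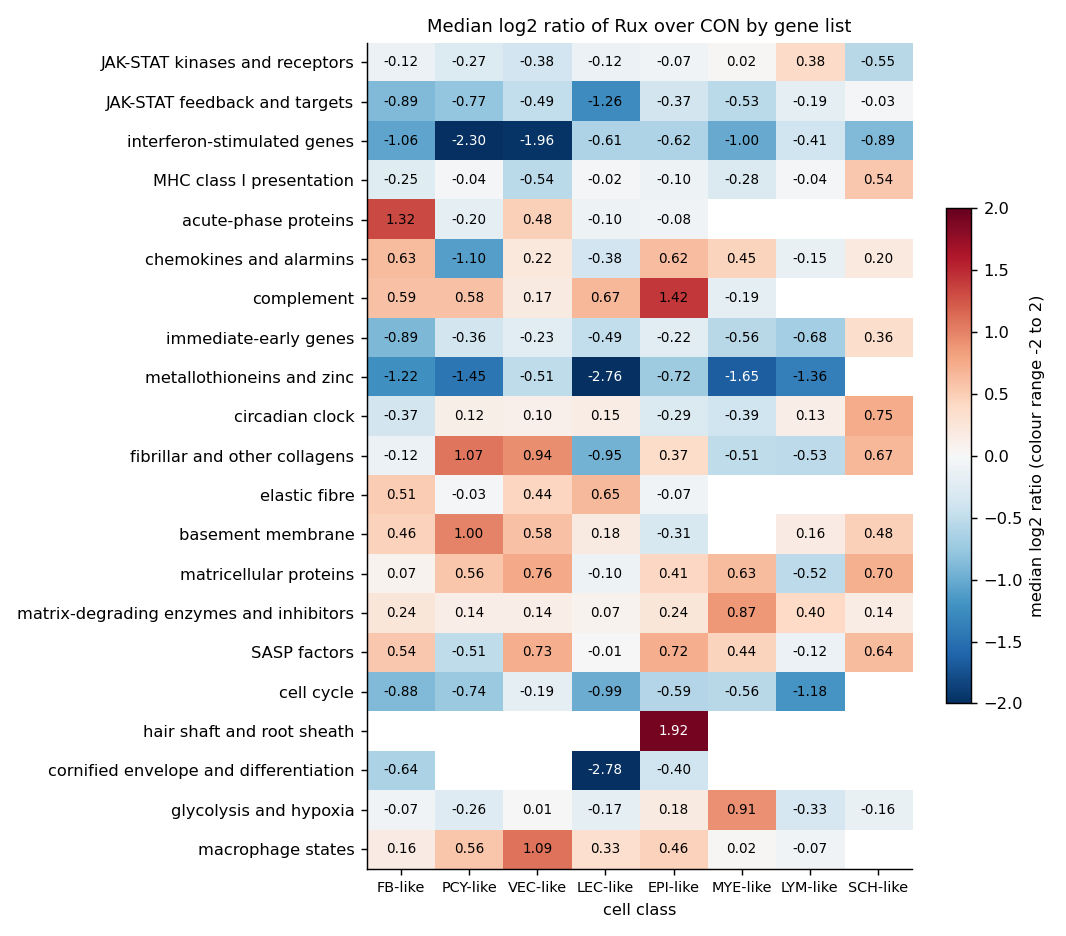
Median log2 ratio of Rux over CON for each gene list (rows) in each cell class (columns) among members that passed the filter on low values, on a colour scale from −2 to 2. The interferon-stimulated row is below 0 in every class shown, down to −2.30 in PCY-like cells and −1.96 in VEC-like cells.

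Interferon-stimulated genes were lower in most of their measured members in vascular endothelial cells. In VEC-like cells 112 of 6730 genes (1.66%) were at least 2-fold higher and 225 (3.34%) at least 2-fold lower, with a median of −0.01 over all of them. Of the interferon-stimulated genes 25 of 29 were at least 2-fold lower and 0 higher, with a median of −1.96. Cxcl9 had 147 CPM in CON, 4.46 CPM in Rux and 175 CPM in UV, and Cxcl10 319, 25.4 and 341 CPM, so both were new under treatment. Iigp1 had 1046, 96.8 and 827 CPM, and Irgm1 170, 10.7 and 117 CPM. The 4 MHC class II genes that passed were all at least 2-fold lower, with a median of −1.53.

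The feedback gene Socs3 and its companion Irf1 were lower in VEC-like cells under the drug and near control without it. Socs3 had 959 CPM in CON, 392 CPM in Rux and 811 CPM in UV, and Irf1 701, 303 and 665 CPM. Selp, P-selectin, which slows leukocytes on the vessel wall, had 2935, 1318 and 1468 CPM over all VEC-like cells. It was thus as low without the drug. A cluster led by Selp held 314 of 486 VEC-like cells in CON, 123 of 241 in Rux and 247 of 654 in UV. The part of this mix in the Selp level was not tested. Icam1, a leukocyte adhesion molecule, was instead higher at 1113, 1841 and 1150 CPM.

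Of the matrix genes measured in VEC-like cells, 5 of 10 collagens and 6 of 14 basement membrane genes were at least 2-fold higher and 0 lower in either list. Pericyte markers summed to 1037 CPM in CON and 1791 CPM in Rux within VEC-like cells, and their part was not tested. Col18a1, the source of endostatin, had 114 CPM in CON, 365 CPM in Rux and 234 CPM in UV, and Col4a1 had 502, 1209 and 1027 CPM. Itgav, the integrin alpha V chain, Prrx1, a mesenchymal transcription factor, and Ccl2 had log2 ratios from 1.71 to 1.90. A single Rux cell held 17.8% of the Col18a1, 21.4% of the Itgav and 20.9% of the Prrx1 UMIs. The lowest VEC-like ratios also took in the immunoglobulin genes Iglc2, Ighm and Jchain, with 99.5% to 99.9% of their CON UMIs in 1 cell.

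In PCY-like cells, the contractile cells around small vessels, 115 of 3837 genes (3.00%) were at least 2-fold higher in Rux and 188 (4.90%) at least 2-fold lower, with a median of 0.02. Of 12 interferon-stimulated genes 7 were at least 2-fold lower, with a median of −2.30, and Cxcl10 had 337 CPM in CON, 40.3 CPM in Rux and 109 CPM in UV. Il33, an alarmin, had 224, 14.1 and 64.4 CPM, and Ifi47 175, 13.1 and 69.3 CPM. Of 12 collagens 8 were at least 2-fold higher, with a median of 1.07, and Col5a3 had 45.9 CPM and 221 CPM. S100a4, a calcium-binding protein of motile cells, had 164, 999 and 655 CPM. Cox4i2, a hypoxia-linked cytochrome oxidase subunit, Higd1b, a pericyte gene, and Agmo, an ether lipid oxygenase, had log2 ratios from 2.05 to 2.43. Trmt61b, a tRNA methyltransferase (168 and 13.1 CPM), and Ikzf4, a zinc finger factor (97.4 and 8.06 CPM), were the remaining low genes.

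In LEC-like cells 210 of 7413 genes (2.83%) were at least 2-fold higher in Rux and 279 (3.76%) at least 2-fold lower, with a median of 0.06. Of the feedback genes 10 of 19 were at least 2-fold lower, with a median of −1.26. Socs3 had 1655 CPM in CON, 416 CPM in Rux and 879 CPM in UV, and Il6 203, 16.3 and 107 CPM, both already lower without the drug. Mt1 had 1430, 177 and 582 CPM, and Gbp2 129, 16.3 and 49.7 CPM. Lyve1, the hyaluronan receptor of lymphatic vessels, was higher at 325, 941 and 688 CPM. Car4, a carbonic anhydrase, had 6.35, 119 and 67.1 CPM, and Fabp4, a fatty acid carrier also found in capillaries and adipocytes, 263, 843 and 450 CPM. Hist1h2bc, a histone, and Kcnt2, a potassium channel, had log2 ratios of 1.93 and 1.91. Igkc and Ighm, again at the bottom, had 98.5% and 98.9% of their CON UMIs in 1 cell.

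In SCH-like cells, the glia of skin nerves, 31 of 1454 genes (2.13%) were at least 2-fold higher in Rux and 37 (2.54%) at least 2-fold lower, with a median of −0.02. Nupr1, a stress-induced nuclear protein, had 10.1 CPM in CON, 288 CPM in Rux and 118 CPM in UV, with a log2 ratio of 4.68 (3.44 to 6.74). Its counts were 4 UMIs in 4 CON cells and 110 UMIs in 15 Rux cells. Tppp3, a tubulin-binding protein, had 93.2 CPM and 611 CPM, and Aqp1, a water channel, 55.4 CPM and 254 CPM. A single cell held 36.4% of the Aqp1 UMIs of CON, and another 33.0% of those of Rux. Igfbp7 and Kif13a, a growth factor-binding protein and a kinesin, had log2 ratios of 1.89 and 1.58. Gbp2 was lower at 302, 41.9 and 118 CPM, as in the vessels. Lyz2, the myeloid lysozyme gene, had 275, 23.6 and 470 CPM, and its source in these cells was not tested. Kitl, the KIT ligand, Marcksl1, a MARCKS-like protein, and Casp4, an inflammatory caspase, had log2 ratios from −2.40 to −2.14.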

How the data were processed

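Cell by gene matrices of UMI counts, made by the authors with Cell Ranger on mm10, were used as deposited. The file headers name Cell Ranger 7.0.0, whereas the submitters' notes list 6.1.2. Cells were kept if they had 200 or more genes and no more than 10% mitochondrial UMIs. Doublets were removed with Scrublet in scanpy 1.11.5 at an expected 0.8% per 1000 cells. The 3 libraries were clustered together, without batch correction, in Seurat 5.3.0 under R 4.3.3 with 2000 variable genes, 30 principal components and a resolution of 1.5. FB-like cells were clustered again with 20 components at a resolution of 0.5. Cell types had no deposited annotation among the files used here, so clusters were named from marker lists and class shares rest on these rebuilt names. Counts were then summed per library and class and compared as CPM with 0.5 UMI added, in Python 3.11.15 with numpy 2.4.6, scipy 1.17.1, pandas 2.3.3 and matplotlib 3.10.9, and the script was tested on simulated data. Classes needed at least 100 cells in both libraries.

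Genes were counted if they averaged 10 CPM or more over CON and Rux and had 100 or more UMIs in the pair. Named genes were the 15 highest and 15 lowest ratios in FB-like cells, 10 and 10 in EPI-like cells and 5 and 5 in the other classes, at an average of 50 CPM or more, plus members of the gene lists described, and a few genes that met this rule are not reported here. The members and lists were chosen with earlier results of these data known. Genes at 0 were compared against a floor of 3 UMIs. Alternatives covered the filters on cells and genes, doublets, resolution, scaling, weighting of cells and the mix of clusters. Each condition being 1 library, intervals are 95% counting intervals.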

Additional observations from a re-analysis of the deposited data

Results flagged for a closer look

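Lpl, which encodes lipoprotein lipase, differed in opposite directions between cell classes. In FB-like cells it had 196 CPM in CON and 395 CPM in Rux, a log2 ratio of 1.01, with UV at 361 CPM. In MYE-like cells it had 227 CPM in CON and 87.1 CPM in Rux, a log2 ratio of −1.38, with UV at 71.9 CPM. The direction in MYE-like cells was the same without the cluster led by Igkc, at 307 CPM and 104 CPM. With 1 library per condition the difference between the classes was not tested.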

How the results depend on the processing

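No paired analysis was possible because each condition was 1 library, and for the same reason no library could be left out. The FB-like share was above control under every filter, but its size depended on them. It was 39.3% in CON and 60.4% in Rux with a minimum of 500 genes and a maximum of 5% mitochondrial UMIs, 35.4% and 54.2% with at most 20% mitochondrial UMIs, 28.6% and 48.5% with doublets kept, and 35.7% and 55.0% at a clustering resolution of 0.8. With a minimum of 50 CPM, 108 genes were at least 2-fold higher and 105 lower in FB-like cells, 59 and 53 in EPI-like cells, and the interferon-stimulated median in FB-like cells was −0.36. With subclusters weighted as in CON, the FB-like counts were 110 higher and 181 lower, the median of the senescence-associated list was 0.13 and Tnc turned to −0.35. This weighting used only subclusters with enough cells in both libraries, so it also dropped the FB-like subclusters held almost wholly by 1 library. It is therefore no separate check from leaving them out. The same weighting of EPI-like clusters, chosen after seeing the data, dropped those led by Fa2h and Fhod3. It gave 137 higher, 98 lower and a hair shaft median of 0.42. Leaving out the FB-like subclusters held almost wholly by 1 library, also chosen after seeing the data, gave a feedback median of −0.42, a senescence-associated median of 0.080, and log2 ratios of −0.31 for Saa3 and −0.29 for Tnc. Of 918 values of single genes and shares of other classes under all settings, 666 stayed within their counting interval and 249 moved further. The other 3 turned direction, being Saa3 and Tnc as given. This tally differed by setting. With subclusters of FB-like and EPI-like cells weighted as in CON, 47 values moved, 1 turned and only 2 stayed. Leaving out the FB-like subclusters held almost wholly by 1 library moved 27, turned 2 and left 1 in place. Median-of-ratios scaling, applied to the single genes only, left 87 values in place, moved 23 and turned none. Counting error is small beside what a second library could show, and mice, dissociation and drug cannot be told apart here.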
